A study of Mus musculus with 10 samples.

Results

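The Timm and Tomm genes encode the translocases that carry proteins made in the cytosol into mitochondria. They were chosen by name, as the protein-coding genes whose GENCODE symbol begins with Timm or Tomm followed by a digit. The rule found 25 genes among the 56748 identifiers counted, of which 21630 were annotated as protein-coding. The symbol pattern matched 27 annotated genes in all, and the other 2, the pseudogene Timm29-ps1 and the non-coding Tomm6os, do not encode proteins.

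RNA was measured in whole hearts, ventricles and both atria together, in 5 mice that had trained on a treadmill for 8 weeks and in 5 sedentary mice. Training mice ran at 15 m/min for 120 min a day on 5 days a week after an acclimatization week, and sedentary mice were not trained. Both groups were wild-type male C57BL/6 mice, bought at 8 weeks of age and allocated at random, and the labels name no other allele and no agent in either group. The paper reports PET/CT scans with an injected FDG tracer under isoflurane for each animal of both groups, before the hearts were taken. Each heart gave 1 directional poly-A library, read as single reads of 100 bases, and the comparison of training with sedentary hearts asks which transcripts change with this training.

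Nearly all mitochondrial proteins are encoded in the nucleus and cross the outer membrane through the TOM complex, which binds them with receptors and passes them through a channel. Precursors with a presequence go on through the TIM23 complex of the inner membrane, where a motor around mitochondrial HSP70 pulls them into the matrix, whereas metabolite carriers are escorted by small TIM chaperones across the intermembrane space to the TIM22 complex. Cardiomyocytes are densely filled with mitochondria, so the heart is a tissue with a large demand for this import.

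By place of the protein, 9 of the 25 genes belong to the outer membrane, 8 to the inner membrane, 7 to the intermembrane space and 1, Tomm34, to the cytosol. Of these, 22 had enough uniquely mapped reads for a test. Timm8a2, a paralogue of the chaperone gene Timm8a1, had 0 reads in every heart, which allows a level of up to 0.0761 to 0.102 CPM depending on the heart, the equivalent of 3 reads. CPM are read counts scaled to the size of the library. Tomm20l, a paralogue of the receptor gene Tomm20, had at most 2 reads in any heart. Tomm6, a small TOM subunit, had a mean of 0.4 unique reads although RSEM, which also shares out reads that match several genes, placed 1049 reads on it. Its span overlaps that of Gm21981 on the same strand by 1648 bases, and the unique counts give no measure of Tomm6.

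The libraries held between 29461697 and 35945417 unique counts on genes in training hearts and between 35196993 and 39431030 in sedentary hearts. Of the 8 cardiomyocyte markers none was at 0, and their summed level was between 59745 and 63183 CPM in training hearts and between 62984 and 72094 CPM in sedentary hearts. Skeletal muscle markers summed to at most 1.81 CPM and lymphocyte markers to at most 6.91 CPM in any heart. Errors are those between hearts.

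Levels of different genes were compared as TPM from the authors' RSEM tables, a unit that divides by transcript length, scales every library to one total and shares out multimapping reads. The inner membrane channel genes Timm17a and Timm23, both of the TIM23 complex, led the family with 174 ± 11.5 and 163 ± 9.23 TPM (mean ± SD, n = 10 hearts). Unique counts were 18.2% of the RSEM counts of Timm23, so its level and rank depend on how RSEM shared out multimapping reads. The levels of Tomm6, Timm8a1, Timm10b, Tomm5 and Tomm20 also depend on how RSEM shared out reads. Their unique shares were 0.04%, 15.7%, 23.4%, 59.4% and 63.8%. The SD between hearts does not cover this. The small TIM gene Timm8b followed at 114 ± 8.09 TPM, then the small TOM subunit Tomm5 at 101 ± 8.44 TPM and the presequence receptor Tomm20 at 84.5 ± 7.88 TPM. The 3 mitochondrial compartments were mixed in this order.

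The central receptor Tomm22 (58.5 ± 4.35 TPM), the chaperones Timm10 (56.9 ± 5.77 TPM) and Timm13 (56.5 ± 3.40 TPM), the subunit Tomm6 (50.5 ± 2.89 TPM) and the motor anchor Timm44 (48.3 ± 3.34 TPM) formed a middle stretch. The channel genes Tomm40 and Tomm40l lay at 44.8 ± 2.31 and 39.4 ± 3.40 TPM, with Timm10b at 42.9 ± 1.88, Timm21 at 37.9 ± 3.49, Timm50 at 31.3 ± 1.74 and Tomm7 at 29.0 ± 3.44 TPM. Timm29 (24.2 ± 1.21 TPM), Timm17b (20.6 ± 2.56 TPM), Timm22 (17.0 ± 1.59 TPM), Timm9 (16.0 ± 1.26 TPM) and Tomm70a (15.8 ± 1.06 TPM) were lower. Tomm34 at 10.8 ± 0.912 TPM and Timm8a1 at 6.90 ± 1.50 TPM came last among the expressed members, and Tomm20l reached 0.12 TPM at most. The ranges over the 10 hearts of neighbours in this order overlapped, except between Timm23 and Timm8b, between Tomm20 and Tomm22, between Tomm70a and Tomm34, and between Timm8a1 and Tomm20l.

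**Figure D1:**
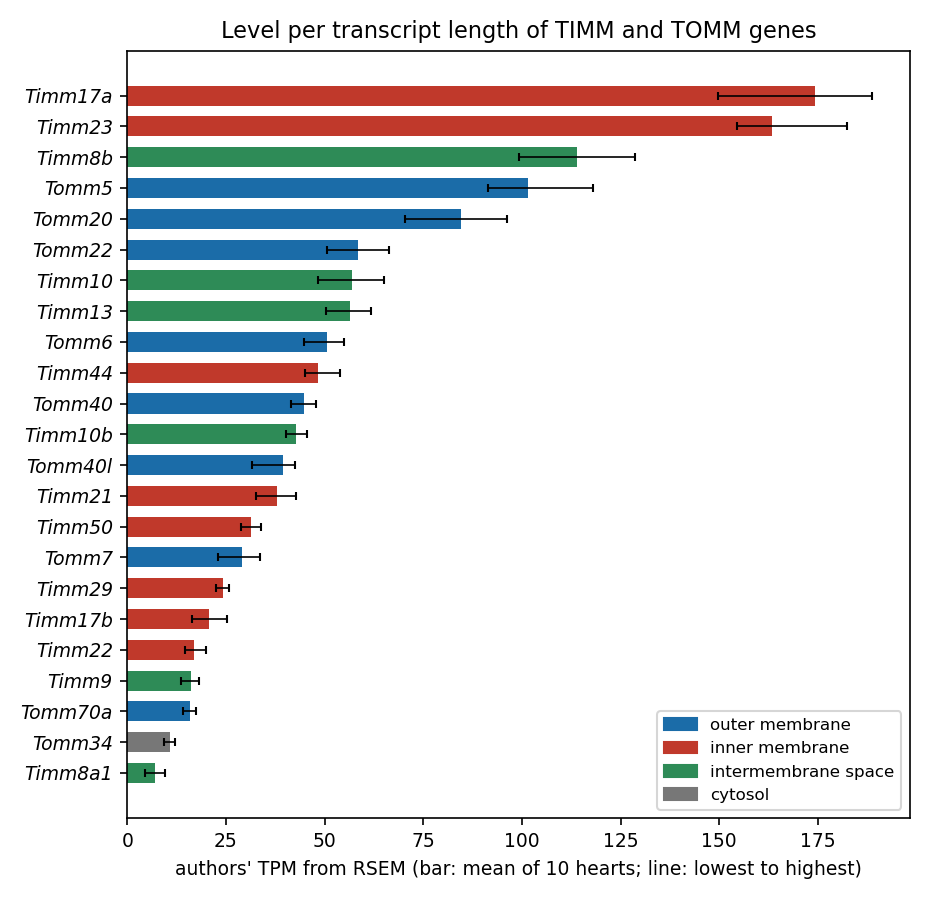
Level of each expressed Timm and Tomm gene as the authors' TPM (horizontal axis), with bars for the mean of the 10 hearts, lines from the lowest to the highest heart, and colours for the compartment of the protein. Timm17a and Timm23 stand above the rest at 174 and 163 TPM, and most neighbours further down have overlapping lines.

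Most of the family lay slightly below its sedentary level in training hearts. Of the 22 tested members, 20 had a log2 fold change below 0, that is, a lower level in training, with a median of −0.10. Of all 15454 genes tested, 49.9% were below 0, with a median of 0.00026. At a false discovery rate (FDR) below 0.1 in edgeR's quasi-likelihood test, 2 members fell, Timm44 and Tomm70a, which is 9.09% of the members beside 4.26% of all genes tested (7.01% in either direction). No member was higher at that FDR, beside 2.75% of all genes, or at an unadjusted p below 0.05 in edgeR, beside 9.4%. The 4 members that DESeq2 called (Timm23, Timm44, Tomm40 and Tomm70a) were all lower, beside 5.73% of the genes it tested. At an unadjusted p below 0.05, 11 members (50.0%) were lower, beside 10.6% of all genes. In 0 of the 22 members did every training heart lie below every sedentary heart, which was the case for 2.94% of all genes tested.

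**Figure D2:**
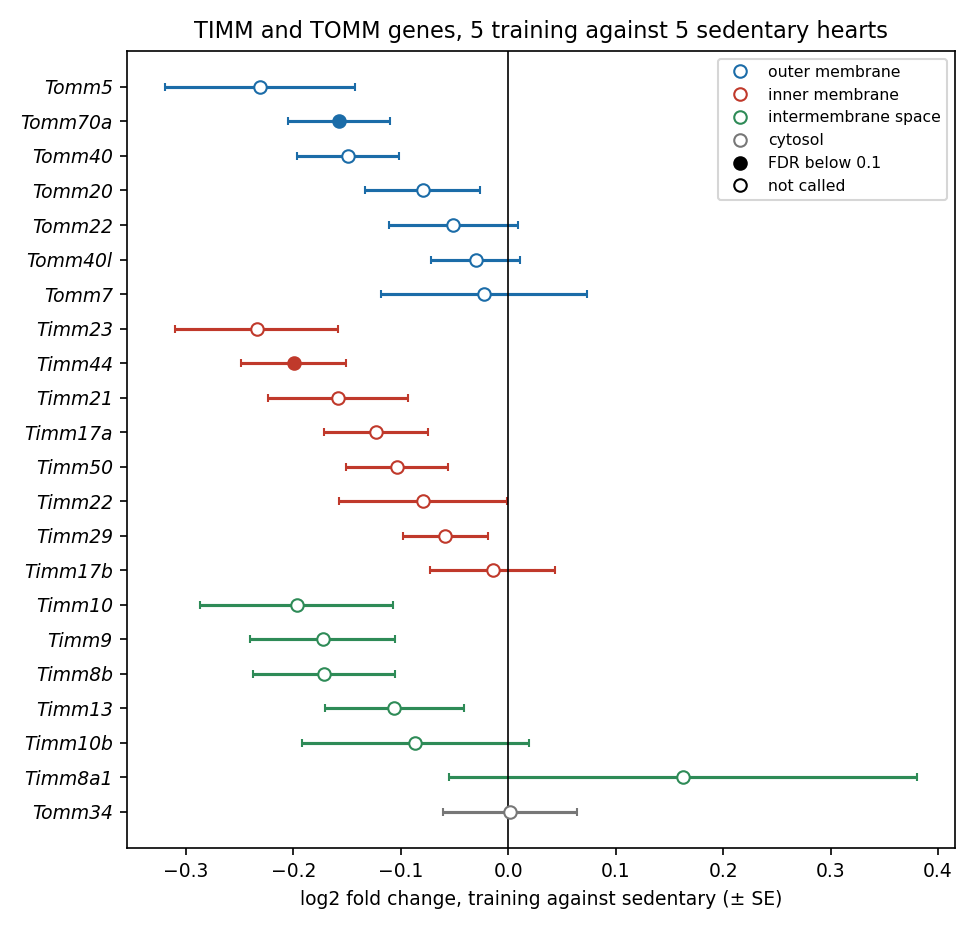
Log2 fold change, training over sedentary (horizontal axis, ± SE), for the 22 tested genes, coloured by compartment, with filled points for an FDR below 0.1. Of the 22 points, 20 lie left of 0, and the filled ones are Tomm70a at −0.16 and Timm44 at −0.20.

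In whole-heart RNA, fewer cells of a type and less RNA per cell cannot be told apart. In the same fit, 1 of 8 cardiomyocyte markers fell (Actc1), 2 of 7 atrial markers were higher (Sln and Dkk3), and 2 of 7 fibroblast markers were higher (Pdgfra and Lum). The summed level of the cardiomyocyte markers was lower in most training hearts. It was between 59745 and 63183 CPM (median 61011) in training and between 62984 and 72094 CPM (median 68643) in sedentary hearts. The summed level of the atrial markers was between 5161 and 7775 CPM in training hearts and between 2847 and 6973 CPM in sedentary hearts. The fibroblast sums were between 1349.6 and 1689 CPM and between 1181 and 1487 CPM, and the endothelial sums between 679.6 and 733 CPM and between 744 and 778 CPM, with none of 5 endothelial markers called. None of these markers was at 0 in all hearts. With the atrial score as a covariate, no member passed in edgeR, where the lowest adjusted p among members was 0.275 and 2 were lower at an unadjusted p below 0.05, and 110 genes in all passed instead of 1084. With this covariate the member median was −0.10 with 19 of 22 below 0, Timm44 was at −0.19 and Tomm70a at −0.14. The medians were −0.07, −0.07 and −0.12 for the outer membrane, inner membrane and intermembrane space, against −0.08, −0.11 and −0.14 without it. Single genes moved either way, with Timm22 at 0.05 in place of −0.08 and Timm23 at −0.28 in place of −0.23. The score itself lay between 0.054 and 0.69 in training hearts and between −1.01 and 0.36 in sedentary hearts. The part of these cell types in the values of the import genes was not tested further.

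The inner membrane gene Timm44 had the lowest adjusted p of the family. It encodes the TIM23 subunit that tethers mitochondrial HSP70 to the channel exit, and lies (ENSMUSG00000002949) on chromosome 8 of GRCm39, 4309718 to 4325931, on the reverse strand. Its level was 78.6, 77.9, 68.5, 72.6 and 70.4 CPM in training hearts 1 to 5 and 85.1, 87.5, 87.6, 84.2 and 78.2 CPM in sedentary hearts 1 to 5. Training hearts 2 to 5 were below every sedentary heart, and training heart 1 lay above sedentary heart 5 by less than 1 CPM. The mean was 73.6 ± 4.50 CPM (SD, n = 5) in training and 84.5 ± 3.86 CPM (SD, n = 5) in sedentary hearts, so that Timm44 fell by 12.9% (log2 fold change −0.20, SE 0.049, edgeR adjusted p = 0.0433). Leaving out training heart 3, training heart 4 or sedentary heart 3 ended this call, with edgeR adjusted p of 0.105, 0.102 and 0.119.

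The outer membrane gene Tomm70a was the other one that fell. Its product is the TOM receptor that takes carrier precursors from cytosolic HSP70 and HSP90, and the gene (ENSMUSG00000022752) lies on chromosome 16, 56941792 to 56977068, on the forward strand. Its level was 84.2, 91.7, 81.1, 83.9 and 87.1 CPM in training hearts 1 to 5 and 92.0, 99.3, 99.0, 99.5 and 87.6 CPM in sedentary hearts 1 to 5. All training hearts except heart 2 lay below all sedentary hearts, and heart 2 was above sedentary heart 5 alone. With 85.6 ± 4.04 CPM (SD, n = 5) against 95.5 ± 5.44 CPM (SD, n = 5), Tomm70a fell by 10.4% (log2 fold change −0.16, SE 0.048, edgeR adjusted p = 0.0884). This call ended without any 1 of training hearts 1, 3, 4 and 5 and sedentary hearts 2, 3 and 4, where the edgeR adjusted p was between 0.128 and 0.203.

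The 250 bases before the annotated start of both genes that fell are given here, read from GRCm39 in the direction of the gene, with every CCAAT box on either strand in capitals. The Timm44 stretch (chr8:4325932-4326181, reverse strand) holds 1 such box and the Tomm70a stretch (chr16:56941542-56941791, forward strand) holds 2.
Timm44: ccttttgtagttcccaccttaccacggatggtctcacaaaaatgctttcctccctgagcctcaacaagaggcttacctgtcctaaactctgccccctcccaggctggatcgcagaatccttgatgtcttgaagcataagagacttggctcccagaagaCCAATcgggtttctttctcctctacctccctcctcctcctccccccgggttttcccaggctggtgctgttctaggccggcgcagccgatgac
Tomm70a: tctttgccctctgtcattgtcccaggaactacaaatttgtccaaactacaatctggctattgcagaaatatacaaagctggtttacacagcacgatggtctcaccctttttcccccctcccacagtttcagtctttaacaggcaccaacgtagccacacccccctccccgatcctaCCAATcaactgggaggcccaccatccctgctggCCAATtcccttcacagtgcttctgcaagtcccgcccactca

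CCAAT boxes were also common elsewhere. Over the window from 250 bases before to 50 bases after the start, 8 of 22 tested members (36.4%) held one, beside 39.01% of 13555 promoters of tested protein-coding genes. Other motifs were searched on both strands and are given for the member promoters and for the same 13555 promoters of tested genes. They were the NRF1 core GCATGCGC (9.09% and 4.58%), the ETS motif CCGGAAGT (13.6% and 6.24%), and the ERR half-site AAGGTCA (13.6% and 3.66%). The YY1 motif AAGATGGC was found in 4.55% and 3.19%, and the E-box CACGTG in 18.2% and 9.81%. The ERR half-site stood in the windows of Timm23, Timm44 and Timm8b, the NRF1 core in those of Timm13 and Tomm7, and the ETS motif in those of Timm10, Timm23 and Timm29. No motif contains another. These are matches of letters in at most 4 promoters of the family for each of the 5 motifs other than the CCAAT box, given as a description.

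Other TOM genes had fold changes on the same side without passing the test. Tomm40 encodes the channel of the outer membrane and was at 60.8, 65.8, 57.8, 59.3 and 55.2 CPM in training hearts 1 to 5 and at 63.5, 68.2, 67.5, 67.2 and 65.1 CPM in sedentary hearts 1 to 5. All training hearts but heart 2 were below the lowest sedentary heart. The log2 fold change was −0.15 (SE 0.047, edgeR adjusted p = 0.103), just outside the FDR threshold. Tomm5, a small subunit next to the channel, was at 35.4, 30.2, 27.3, 27.0 and 23.2 CPM in training and 31.9, 33.9, 36.6, 33.7 and 32.1 CPM in sedentary hearts. Here training heart 1 exceeded 4 of the 5 sedentary hearts while the other training hearts lay below all of them, and the log2 fold change of −0.23 (SE 0.088) had an edgeR adjusted p of 0.165.

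The log2 fold changes of the other tested TOM genes described here lay between −0.08 and −0.02. Tomm20 had −0.08 (SE 0.054, edgeR adjusted p = 0.446) from unique counts and −0.02 (SE 0.040, edgeR adjusted p = 0.806) from RSEM counts, and Tomm22 of −0.05 (SE 0.060, edgeR adjusted p = 0.690). Tomm7, a small subunit that also holds PINK1 at the outer membrane, was at −0.02 (SE 0.096, edgeR adjusted p = 0.927). For Tomm6, which the unique counts miss, the RSEM counts gave −0.08 (edgeR adjusted p = 0.437). Tomm34, a cytosolic cochaperone, was at 0.0015 (SE 0.062, edgeR adjusted p = 0.993).

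In the inner membrane, all 8 tested members had a log2 fold change below 0. Not counting the motor anchor Timm44, 4 of the 5 genes of the TIM23 channel complex had an unadjusted p below 0.05. Timm23, its core subunit, was at 31.5, 28.9, 29.1, 24.9 and 23.9 CPM in training hearts 1 to 5 and at 32.6, 32.3, 36.7, 31.2 and 30.1 CPM in sedentary hearts 1 to 5. Training heart 1 lay among the sedentary hearts and the other training hearts lay below them. The log2 fold change was −0.23 (SE 0.076, edgeR adjusted p = 0.108) from unique counts and −0.15 (SE 0.047, edgeR adjusted p = 0.103) from RSEM counts. Unique counts made up 18.2% of the RSEM counts of Timm23, and 99.1% of its transcript matched 4 other places in the genome at 98% identity or more over at least 100 bases.

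The receptor gene Timm50 had a log2 fold change of −0.10 (SE 0.047, edgeR adjusted p = 0.241), and Timm21, whose product contacts TOM, one of −0.16 (SE 0.065, edgeR adjusted p = 0.196). Both had 4 training hearts below all sedentary hearts. The TIM22 complex, which inserts carriers, had smaller values, with −0.08 for its channel gene Timm22 (SE 0.078, edgeR adjusted p = 0.627) and −0.06 for Timm29 (SE 0.040, edgeR adjusted p = 0.449). The median was −0.12 over the 5 genes of the TIM23 channel complex and −0.07 over both genes of TIM22, a difference that was not tested. The motor anchor Timm44 (−0.20) is not among these 5.

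Among the small TIM chaperones, which work as hexamers in the intermembrane space, 5 of 6 tested genes were below 0 and none passed in edgeR, with 3 at an unadjusted p below 0.05. Timm8b was at 48.7, 47.5, 41.3, 43.4 and 37.8 CPM in training hearts 1 to 5 and at 45.4, 51.4, 52.1, 49.5 and 48.0 CPM in sedentary hearts 1 to 5. Training hearts 3 to 5 lay below all sedentary hearts and hearts 1 and 2 among them (log2 fold change −0.17, SE 0.066, edgeR adjusted p = 0.168). The partners Timm9 and Timm10, which form the main carrier chaperone, had −0.17 (SE 0.067, edgeR adjusted p = 0.173) and −0.20 (SE 0.090, edgeR adjusted p = 0.241). Timm13, the partner of TIMM8A, had −0.11 (SE 0.065, edgeR adjusted p = 0.393).

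Timm10b, which docks the chaperones on TIM22, had −0.09 (SE 0.11, edgeR adjusted p = 0.702) at a mean of 145.5 unique reads, 23.4% of its RSEM counts, and shares 3089 bases of its span with Gm45799 on the same strand. Its RSEM counts gave −0.13 (edgeR adjusted p = 0.187). Low unique shares were also found for Timm8a1 (15.7%), Tomm5 (59.4%) and Tomm20 (63.8%), each with part of the transcript in 1 or 2 other places of the genome. From RSEM counts, Tomm5 had −0.17 (edgeR adjusted p = 0.230) and Timm8a1 0.16 (edgeR adjusted p = 0.676). Without Timm23 and these 4 genes, 16 of 17 members were below 0 with a median of −0.11 and 2 were called.

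**Figure D3:**
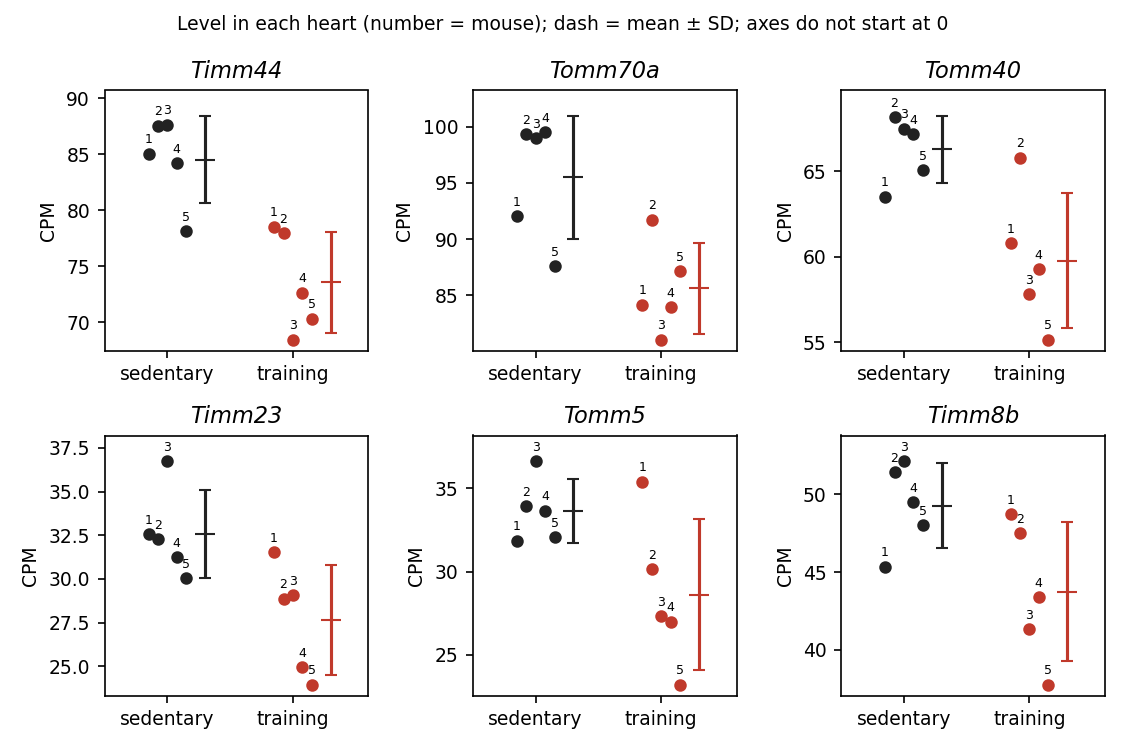
CPM in each heart (vertical axes, which do not start at 0) for the 6 genes with the lowest unadjusted p, with the mouse number above each point and a dash with bars for mean ± SD, n = 5. In Timm44, Tomm70a, Tomm40, Timm23 and Tomm5, 4 training hearts lie below all sedentary hearts, and in Timm8b 3 do.

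By compartment, the median log2 fold change was −0.08 for the 7 outer membrane genes, from −0.23 to −0.02, and −0.11 for the 8 inner membrane genes, from −0.23 to −0.01. For the 6 genes of the intermembrane space it was −0.14, from −0.20 to 0.16. The ranges of the 3 compartments overlapped widely, and the order of their medians was not tested.

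Most members were low in the same hearts. The mean over the 22 genes of the log2 CPM, each centred on its own mean, was 0.07, 0.02, −0.11, −0.10 and −0.14 in training hearts 1 to 5 and 0.01, 0.10, 0.10, 0.08 and −0.02 in sedentary hearts 1 to 5. Training hearts 3, 4 and 5 lay below all sedentary hearts, while training hearts 1 and 2 lay among them. In each of hearts 3, 4 and 5 only 3 of the 22 genes were above their own mean over all hearts, whereas in training heart 1 it was 15. All 3 compartments showed the same 3 training hearts below all sedentary hearts, and in training heart 1 the intermembrane space genes had the highest mean of all 10 hearts, 0.17. Without training heart 1, 7 members passed in edgeR instead of 2, namely Timm10, Timm17a, Timm21, Timm23, Timm44, Timm8b and Tomm5, beside 991 of 15610 genes in all, 621 of them lower.

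**Figure D4:**
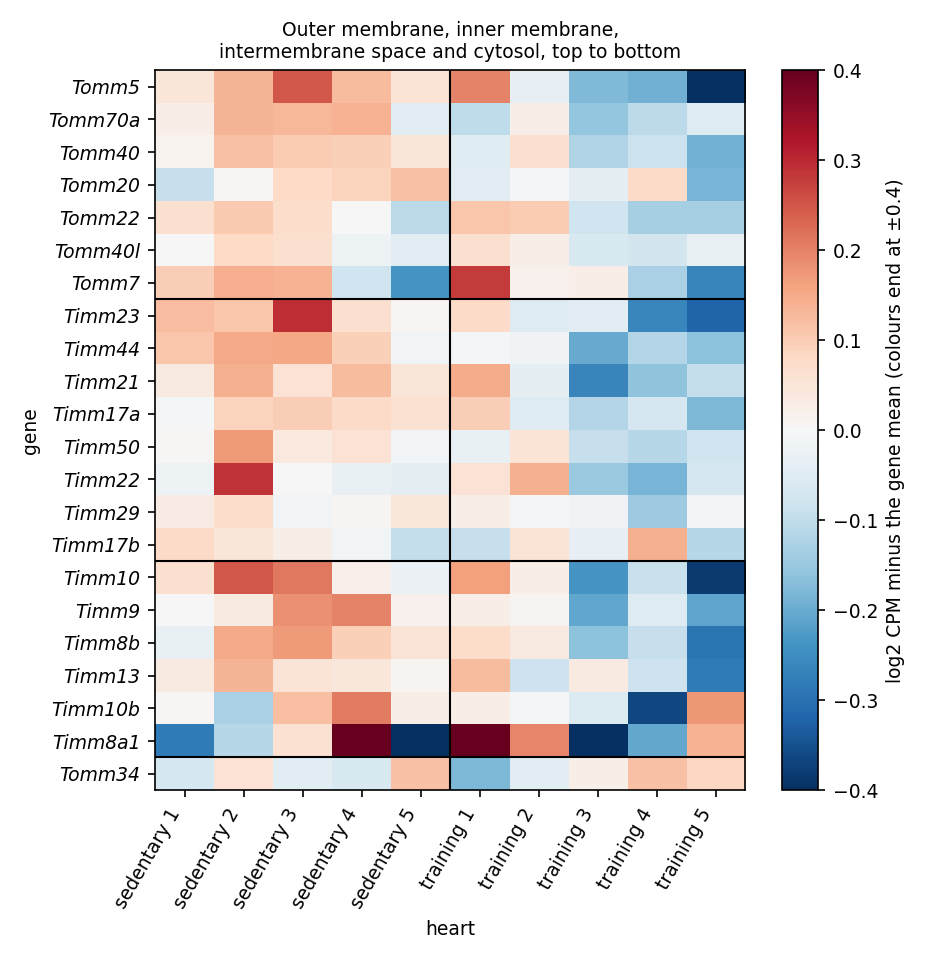
Log2 CPM minus the mean of the gene over 10 hearts, in colour, for the 22 tested genes (vertical) in each heart (horizontal), sedentary hearts left of the line. Training hearts 3, 4 and 5 are low in all but 3 genes each, while training heart 1 is above the mean in 15.

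Paralogues that can fill the same place were compared as ratios of unique counts within each heart, which do not depend on library size. Of 3 ratios, each put to an exact permutation test (two-sided) over all assignments of the hearts, whose smallest possible p is 0.00794, 1 had a p below 0.05 before adjustment. Tomm40l, the paralogue of the TOM channel, was at 72.9, 70.8, 66.9, 66.2 and 68.2 CPM in training hearts 1 to 5 and at 69.6, 73.6, 72.9, 68.7 and 67.6 CPM in sedentary hearts 1 to 5, with wide overlap (log2 fold change −0.03, SE 0.042, edgeR adjusted p = 0.741). The ratio of Tomm40l to Tomm40 reads was 1.16 ± 0.0638 (SD, n = 5 hearts) in training and 1.06 ± 0.0309 (SD, n = 5 hearts) in sedentary hearts, a log2 difference of 0.12 (SE 0.040, exact permutation p = 0.0317, 0.0952 adjusted over 3 ratios). It was above the highest sedentary heart, 1.10, in 4 of 5 training hearts, and with counts of both strands the log2 difference was 0.07 (exact permutation p = 0.476). On the opposite strand the span of Tomm40l overlaps Nr1i3 by 4693 bases and Apoa2 by 1153, genes with means of 3.1 and 14.4 unique reads. Counts of both strands do not separate such overlaps, and their part in this value was not tested.

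Timm17a and Timm17b encode alternative subunits of the TIM23 channel. Timm17a was at 120.0, 108, 103, 107 and 99.1 CPM in training hearts 1 to 5 and at 111, 119, 120, 118 and 117 CPM in sedentary hearts 1 to 5. Training hearts 2 to 5 were below all sedentary hearts and training heart 1 was as high as the highest of them (log2 fold change −0.12, SE 0.049, edgeR adjusted p = 0.180). Timm17b, on chromosome X, was at 17.2, 19.1, 18.0, 20.3 and 17.0 CPM in training and 19.4, 19.0, 18.7, 18.2 and 17.2 CPM in sedentary hearts, with −0.01 (SE 0.058, edgeR adjusted p = 0.921) and full overlap. The Timm17a to Timm17b ratio was 5.90 ± 0.628 (SD, n = 5 hearts) against 6.35 ± 0.383 (SD, n = 5 hearts), a log2 difference of −0.11 (SE 0.077, exact permutation p = 0.175, 0.175 adjusted).

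Timm8a1, also on chromosome X, was the member with a fold change furthest above 0 and the lowest level of the tested ones. It was at 2.09, 1.52, 0.99, 1.15 and 1.46 CPM in training hearts 1 to 5 and at 1.09, 1.23, 1.38, 1.79 and 0.96 CPM in sedentary hearts 1 to 5. The groups overlapped fully, and its log2 fold change of 0.16 (SE 0.22, edgeR adjusted p = 0.731) turned to −0.014 without training heart 1. The Timm8b to Timm8a1 ratio was 32.0 ± 7.77 (SD, n = 5 hearts) in training and 39.8 ± 8.15 (SD, n = 5 hearts) in sedentary hearts, a log2 difference of −0.32 (SE 0.21, exact permutation p = 0.175, 0.175 adjusted). The size of this ratio depends on the kind of count. Unique counts were 15.7% of the RSEM counts for Timm8a1 and 102% for Timm8b, with RSEM means of 307 and 1617 reads. Of the Timm8a1 transcript, 21.2% matched 1 other place in the genome. The longest stretch shared without mismatch between the transcripts of a pair was 47 bases for Timm17a and Timm17b, 17 for Tomm40l and Tomm40 and 14 for Timm8b and Timm8a1, all shorter than a read.

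**Figure D5:**
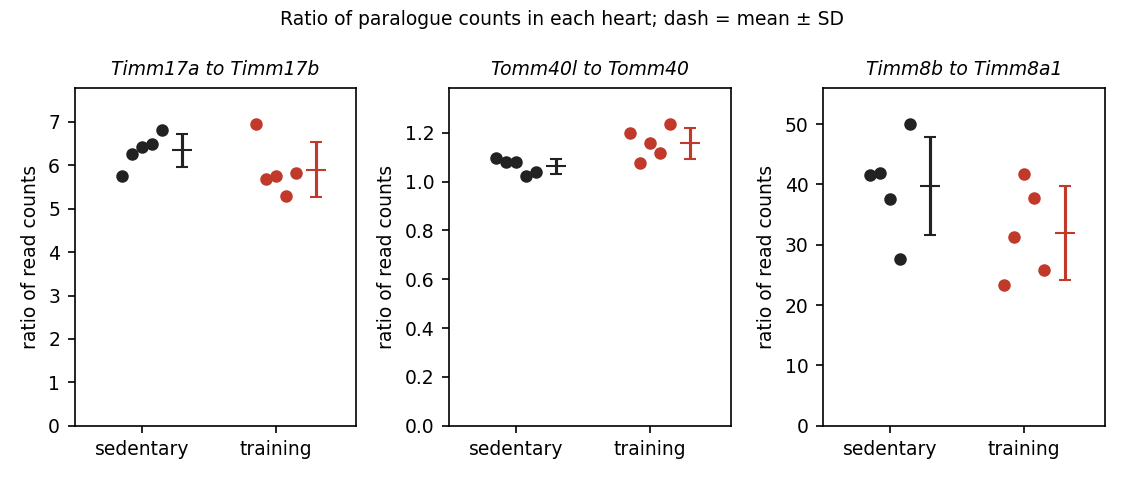
Ratio of unique read counts of 3 paralogue pairs in each heart (vertical axes, starting at 0), with a dash and bars for mean ± SD, n = 5. For Tomm40l to Tomm40 the means are 1.16 in training and 1.06 in sedentary hearts, and in all 3 pairs the points of the groups overlap.

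A list of 36 other genes of import and of steps around it had the same sign in most cases. The list was written for this comparison and holds 7 genes of the MICOS complex. In edgeR 29 were below 0, 4 fell at an FDR below 0.1 (11.1%, beside 4.26% of all genes) and none was higher, also not at an unadjusted p below 0.05, with a median of −0.07. The genes that fell were Grpel1 and Grpel2, nucleotide exchange factors of mitochondrial HSP70, Dnaja3, a matrix cochaperone, and Micos13, a subunit of the MICOS complex at the cristae junctions. Grpel1 had a log2 fold change of −0.16 (SE 0.048, edgeR adjusted p = 0.0861) and Grpel2 of −0.21 (SE 0.064, edgeR adjusted p = 0.0933). Dnaja3 had −0.14 (SE 0.041, edgeR adjusted p = 0.0848) and Micos13 −0.21 (SE 0.064, edgeR adjusted p = 0.0826). In Grpel1 and Micos13 all 5 training hearts were below all sedentary hearts, 2 of 36 genes beside 2.94% of all genes tested. Each of these calls was lost in most of the 10 fits without 1 heart, in 8 for Grpel2 and in 7 for each of the others, and in all 4 genes without training heart 3, 4 or 5 or sedentary heart 2, 3 or 4. The highest edgeR adjusted p was 0.192 for Grpel1, 0.210 for Grpel2, 0.190 for Dnaja3 and 0.178 for Micos13 in those fits, and that of Grpel1 was 0.102 with RSEM counts.

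Around TIM23, the 7 motor and partner genes were all below 0 with a median of −0.16, and Hspa9, mitochondrial HSP70 itself, had −0.11 (SE 0.045, edgeR adjusted p = 0.211) and Pam16 −0.06 (SE 0.060, edgeR adjusted p = 0.624). The unique counts of Pam16 were 60.9% of its RSEM counts, which gave −0.17 (SE 0.060, edgeR adjusted p = 0.149). The 4 matrix folding genes had a median of −0.15 and the 7 MICOS genes one of −0.10, in both lists with all genes below 0. In contrast the 6 presequence processing genes had a median of −0.01, and the 6 outer membrane sorting genes one of −0.03, among them Samm50, the core of the sorting machinery, at −0.04 (SE 0.053, edgeR adjusted p = 0.746). Chchd4, which folds small TIM proteins by oxidation, was at 0.03 (SE 0.084, edgeR adjusted p = 0.898) and Agk, a lipid kinase in TIM22, at 0.04 (SE 0.096, edgeR adjusted p = 0.880). No difference between these lists was tested.

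Other mitochondrial gene families had medians of like size. Complex I genes had a median log2 fold change of −0.14, with 33 of 38 below 0 and 9 called lower (23.7%, beside 4.26% of all genes), and mitochondrial ribosomal protein genes had one of −0.11, with 70 of 77 below 0 and 17 called lower (22.1%) and 1 called higher, Mrps6, which is named only because the count is 1. The differences between families were not tested. The median transcript length was 1089 bases in the members and 2392 in all genes tested. When all genes were split by length into 4 groups of equal size, the median log2 fold change was −0.033 in the shortest group and 0.02 in the longest. With this trend on length removed, 17 of 22 members were below 0, their median was −0.07 and 4 passed in edgeR, Timm23, Timm44, Tomm40 and Tomm70a. Over all 15454 genes, 1232 then passed, 733 of them lower, in place of 1084 and 659. When library totals replaced TMM scaling, the median of all genes moved to 0.05 and that of the members to −0.05, 16 of 22 members were below 0 and none passed in edgeR, with 2 at an unadjusted p below 0.05 and lower. Calls over all genes were then 1029 higher and 339 lower, in place of 425 and 659.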

How the data were processed

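Hearts were grouped by the treatment in the labels. The authors aligned the reads to GRCm39 with STAR 2.7.10a and deposited, for every gene and strand, raw counts of the reads that map to 1 place. The authors also deposited expected counts and TPM from RSEM 1.3.3, whose strand setting is not given in the sources used here. Reverse-strand counts entered the fits (a median of 95.4% of both strands together). Lines that name no gene did not, with multimapping reads at 17.9% to 19.2% and reads on no gene at 4.15% to 4.89% of all reads. Expected counts were rounded to whole numbers for tests. Depth per heart is given with the results and limits the precision of low genes such as Timm8a1 most. The limit given for a count of 0 covers counting error only.

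Symbols and positions came from GENCODE M39, which matched 56017 of 56748 identifiers. The fit used edgeR 4.0.16 under R 4.3.3, with filterByExpr, TMM scaling and its quasi-likelihood F test. P-values were adjusted after Benjamini-Hochberg over all genes tested, with calls at an FDR below 0.1. CPM use TMM-corrected library sizes, with a prior count of 2 for logarithms in the marker scores. The steps were also run on simulated counts. The changes planted there were larger than those of the members, so that run does not bear on changes of their size. Copies of transcripts were searched with blastn 2.17.0. Alternatives were DESeq2 1.42.0, other scalings, filters and kinds of count, length or GC trends removed by loess (span 0.3), an atrial marker score as covariate, the mouse number as block and each heart left out. Mouse numbers were not used as pairs.

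Every member was named, and values per heart were given for the called members, the paralogue pairs and the members with the lowest unadjusted p, up to 6 in all beside the pairs. Of the other import genes, the called ones and Hspa9, Chchd4, Samm50, Agk and Pam16 were named. The members, lists and motifs were chosen with earlier results of these data known. Nothing in the labels says more on the origin of the hearts than 1 mouse each, and p-values measure the spread between these mice.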

Additional observations from a re-analysis of the deposited data

Results flagged for a closer look

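In each of the 22 tested genes and both groups, the heart at the edge was compared with the nearest other heart by Dixon's ratio, 44 groups in all, of which chance would mark about 1 in 20. The ratio passed its 95% critical value of 0.71 for 5 hearts in 2 of them. Timm29, a subunit of TIM22, was at 64.7 CPM in training heart 4, with the other training hearts between 70.8 and 72.7 CPM. Timm22, the channel of the same complex, was at 24.5 CPM in sedentary heart 2, with the other sedentary hearts between 19.6 and 20.0 CPM. Neither gene passed the test between groups.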

How the results depend on the processing

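The compartment medians stayed below 0 and moved by less than the spread between hearts under all 22 alternatives of the fit. For the outer membrane that spread, 0.0823, is larger than the size of the median, −0.0796. A move towards 0 could therefore not exceed it without a change of sign. The spread was 0.126 beside a median of −0.139 for the intermembrane space, and 0.0655 beside −0.113 for the inner membrane. A move of most of the intermembrane space median would thus also stay within the spread. The medians nearest to 0 were −0.025 (outer membrane) and −0.060 (inner membrane) with library totals. For the intermembrane space it was −0.060 in place of −0.139, with the length trend removed. Over the 22 members and the 9 named import genes, 575 values kept sign and call, 18 passed in addition, 57 lost the call and 32 changed sign. Only genes called in the reported fit could lose a call, and all 57 losses were theirs. Timm44 lost it in 3 of 10 fits without 1 heart and in 2 of 12 other settings. The numbers were 7 and 3 for Tomm70a, Grpel1 and Micos13, 8 and 3 for Grpel2, and 7 and 4 for Dnaja3. The number of members called was 4 with DESeq2 (1411 genes in all) and with the length trend removed (1232), 0 with library totals (1368) and with the atrial covariate (110), and 1, Timm44, at an FDR below 0.05 (505 genes). It was 2, as reported, with mitochondrial DNA genes left out, DESeq2 size factors or the counts of both strands, and 3 with RSEM counts, the GC trend removed, no filter or a minimum of 10 counts per library. Without 1 heart it ranged from 0 to 7 and the count over all genes from 512 to 1490, with 512 without training heart 4 or sedentary heart 3, 540 without training heart 3, 611 without sedentary heart 2 and 671 without sedentary heart 4. It was 7 when training heart 1 was left out, 0 for training hearts 3 and 4 and sedentary heart 3, and 1, Timm44, for training heart 5 and sedentary hearts 2 and 4. Other import genes called ranged from 0 (training hearts 3, 4 and 5 and sedentary hearts 2, 3 and 4) to 8 (training heart 1) without 1 heart, with 7 for training heart 2 and 1 for sedentary heart 5, and were 0 with library totals, with the atrial covariate and at an FDR below 0.05. Without members of low unique share, an alternative chosen after seeing the data, 2 were called.

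Residuals of hearts with the same mouse number had correlations of −0.10, 0.16, 0.08, 0.02 and 0.16, so the numbers were not taken as pairs. With the number as a replicate block, 1137 genes passed in edgeR, among them 3 members, Timm23, Timm44 and Tomm40, while Tomm70a had an edgeR adjusted p of 0.103. The paired sign-flip test of the Tomm40l to Tomm40 ratio kept 0.12 (exact p = 0.125, the smallest possible being 0.0625).

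That ratio had a log2 difference of 0.073 with counts of both strands and of 0.096 to 0.15 without 1 heart, where the exact permutation p was 0.0556 without training heart 5, 0.0714 without sedentary heart 4 and 0.0635 without sedentary heart 5. The Timm17a to Timm17b difference ranged from −0.17 to −0.071 without 1 heart, with an exact permutation p of 0.0238 without training heart 1. Signs changed in these cases. Library totals gave 0.00076 for Tomm22, 0.022 for Tomm40l, 0.028 for Tomm7, 0.038 for Timm17b and 0.014 for Samm50. The length trend removed gave 0.00043 for Tomm7, 0.018 for Timm17b, 0.0015 for Timm10b and 0.016 for Pam16, and the atrial covariate 0.052 for Timm22. Tomm34 was at −0.0078 with no filter and −0.0037 with RSEM counts. Without 1 heart the ranges crossed 0 for Tomm7 (−0.10 to 0.035), Timm17b (−0.053 to 0.010), Timm8a1 (−0.014 to 0.31), Tomm34 (−0.028 to 0.044), Chchd4 (−0.031 to 0.068) and Agk (−0.030 to 0.091). The causes were not tested.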
